A study of Homo sapiens with 6 samples.

Results

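Clone-named loci are transcribed regions that still carried, in the annotation used, the name of the genomic clone on which they were found, such as RP11-54A9.1, in place of a gene symbol. All rows of the deposited table whose symbol began with RP, digits and a hyphen, or with CTA-, CTB-, CTC- or CTD-, were taken, which gave 139 of the 1305 listed genes, 126 with RP names and 13 with CT names. They were measured by RNA sequencing in NCI-H292, an established human lung mucoepidermoid carcinoma line, grown for 48 h with the solvent DMSO (1 part in 1000) or with 50 nM mitoxantrone, 3 libraries each. Mitoxantrone is a cytotoxic drug that poisons type II topoisomerase and leaves DNA breaks. All 6 libraries came from this 1 line, and the labels do not say whether they were separate cultures, so p-values measure the spread between these libraries only, which may be technical.

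Most loci of this kind give long non-coding RNAs (lncRNAs), transcripts without a known protein product. An antisense lncRNA is read from the strand opposite a gene, a divergent transcript starts beside a gene's own start and runs away from it, a long intergenic non-coding RNA (lincRNA) lies between genes, and a pseudogene is a decayed copy of a gene. Such transcripts are as a rule scarcer than messenger RNAs, and many are made from the start regions or enhancers of coding genes. The label was checked against GENCODE release 29 by gene identifier. Of the 139 loci, 123 had an entry there: 49 were antisense, 45 lincRNA, 12 pseudogenes, 8 sense intronic or sense overlapping, 6 other non-coding and 3 protein-coding. The name "non-coding" therefore held for most but not all of them. All 123 had lost their clone name by that release, and a current symbol was found for 118 of the 139, of which 50 were still bare identifiers and 68 were names such as PINCR, WAKMAR2 or SH3TC2-DT.

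The table held only genes selected by the authors on these libraries. No listed gene had a log2 fold change below 1.0 in size or an adjusted p above 0.043 in the authors' deposited table. Every locus had already passed the authors' own selection, so the counts below describe how such loci differed, not how many clone-named loci responded. Library totals ranged from 14762544 to 17817782 reads. Of the reads on listed genes, the clone-named loci took 1.033% to 1.063% in DMSO and 0.774% to 0.816% in mitoxantrone. The listed genes themselves took 3.972% to 4.041% of the library totals in DMSO and 6.084% to 6.195% in mitoxantrone. Scaled to library totals of equal size, reads on the clone-named loci were therefore higher, not lower, with mitoxantrone (413.4 to 429.4 in DMSO, 479.8 to 503.6 in mitoxantrone). Of 21 markers of epithelial, mesenchymal, blood and endothelial cells, 3 were in the table. The epithelial keratins KRT8 (28408 to 38087 normalized reads in DMSO, 79946 to 98870 in mitoxantrone) and KRT18 rose, with log2 fold changes of 1.48 and 1.19, and the collagen gene COL1A1 had 293 to 392 reads in DMSO and 120 to 159 in mitoxantrone. The part of these in the results was not tested, and in bulk RNA fewer cells of a kind and less RNA per cell cannot be told apart.

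Start regions were available for 48 of the 139 loci by current symbol, as RefSeq windows of 300 bases (250 before to 50 after the start, GRCh38.p14). They are shown for the 4 loci whose window overlapped, on the opposite strand, that of another listed gene, as examples of loci that start beside another listed gene. Capitals mark the stretch that lies in both windows, and each sequence runs 5′ to 3′ on the strand of the clone-named locus. The window of SH3TC2-DT (CTC-529P8.1) is chr5:149063067-149063366, plus strand; that of MAP3K9-DT (RP6-65G23.3) is chr14:70809650-70809949, plus strand; that of HSD11B1-AS1 (RP1-28O10.1), shared with G0S2, is chr1:209675200-209675499, minus strand; and that of JDP2-AS1 (RP11-293M10.6) is chr14:75427606-75427905, minus strand.
SH3TC2-DT: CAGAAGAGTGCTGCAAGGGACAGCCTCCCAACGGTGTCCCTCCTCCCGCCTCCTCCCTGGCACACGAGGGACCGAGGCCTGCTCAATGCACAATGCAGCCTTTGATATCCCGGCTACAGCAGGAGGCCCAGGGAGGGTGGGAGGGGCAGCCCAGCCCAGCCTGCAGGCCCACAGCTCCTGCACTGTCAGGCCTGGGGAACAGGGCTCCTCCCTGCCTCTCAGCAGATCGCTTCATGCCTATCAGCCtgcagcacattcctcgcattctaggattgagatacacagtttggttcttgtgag
MAP3K9-DT: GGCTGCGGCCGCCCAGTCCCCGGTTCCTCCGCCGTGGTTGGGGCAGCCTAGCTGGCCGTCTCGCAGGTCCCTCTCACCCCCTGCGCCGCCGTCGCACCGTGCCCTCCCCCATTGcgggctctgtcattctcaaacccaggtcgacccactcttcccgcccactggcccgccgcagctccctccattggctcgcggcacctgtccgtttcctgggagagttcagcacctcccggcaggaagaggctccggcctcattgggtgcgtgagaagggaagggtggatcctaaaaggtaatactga
HSD11B1-AS1: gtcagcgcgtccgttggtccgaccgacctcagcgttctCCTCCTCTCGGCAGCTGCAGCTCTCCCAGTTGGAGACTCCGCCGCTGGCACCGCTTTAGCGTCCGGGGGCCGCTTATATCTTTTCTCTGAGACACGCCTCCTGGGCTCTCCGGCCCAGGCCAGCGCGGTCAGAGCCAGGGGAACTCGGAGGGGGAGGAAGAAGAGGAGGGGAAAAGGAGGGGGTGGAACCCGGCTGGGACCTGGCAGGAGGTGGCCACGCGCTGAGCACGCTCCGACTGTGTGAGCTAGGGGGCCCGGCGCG
JDP2-AS1: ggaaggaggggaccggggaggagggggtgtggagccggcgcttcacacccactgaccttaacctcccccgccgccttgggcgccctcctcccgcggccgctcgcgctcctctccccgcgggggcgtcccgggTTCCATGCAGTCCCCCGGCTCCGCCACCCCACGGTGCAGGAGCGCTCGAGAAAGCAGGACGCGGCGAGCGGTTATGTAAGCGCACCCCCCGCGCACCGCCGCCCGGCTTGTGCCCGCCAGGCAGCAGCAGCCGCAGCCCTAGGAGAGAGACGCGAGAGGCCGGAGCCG

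The annotated starts in each pair lay close together. The distance was 255 bases for SH3TC2-DT and SH3TC2, 387 for MAP3K9-DT and MAP3K9, 163 for HSD11B1-AS1 and G0S2, and 69 for JDP2-AS1 and JDP2. The windows shared 246, 114, 262 and 168 bases, and the GC content of the clone-named window was 61.7%, 67.0%, 68.0% and 74.7%.

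In all 4 pairs both partners differed in the same direction between treatments. SH3TC2-DT had 8.59, 3.09 and 7.71 normalized reads in the DMSO libraries and 18.1, 41.7 and 35.4 in the mitoxantrone libraries. Every mitoxantrone library lay above every DMSO library, and the locus rose by a log2 fold change of 2.25 ± 0.44 (SE; edgeR quasi-likelihood test, Benjamini-Hochberg adjusted p = 0.0024). Its partner SH3TC2, which encodes a protein of Schwann cells mutated in a hereditary neuropathy, rose from 180.2 ± 47.0 to 655 ± 68.5 reads (SD, n = 3). MAP3K9-DT had 58.4, 94.8 and 62.5 reads in DMSO and 327.9, 283.4 and 258.7 in mitoxantrone, again without overlap. It rose 4.10-fold (edgeR adjusted p = 2.5e-06), and MAP3K9, a kinase upstream of JNK signalling, rose 2.63-fold, from 595 ± 182 to 1588 ± 312 reads.

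HSD11B1-AS1 had 0.859, 1.03 and 2.57 reads in DMSO and 5.65, 7.29 and 15.0 in mitoxantrone, a rise of 2.54 ± 0.70 on the log2 scale (edgeR adjusted p = 0.039) that rests on 5 and 26 reads. Leaving out 1 library gave adjusted p-values of 0.033 to 0.37. G0S2, which encodes an inhibitor of the fat-cell lipase ATGL, had 0 reads in all 3 DMSO libraries and 35 in the mitoxantrone libraries. With 3 reads over the DMSO group as the floor, it was at least 13.9-fold higher; the exact 95% counting interval used for the other folds begins at 10.7. JDP2-AS1 was the pair with lower values: 12.03, 18.6 and 8.57 reads in DMSO and 3.39, 5.21 and 2.15 in mitoxantrone. The groups did not overlap, but its fold change of -1.80 ± 0.55 missed the threshold (edgeR adjusted p = 0.072), while JDP2, a repressor of the AP-1 family, fell from 418 ± 50.1 to 151.5 ± 12.4 reads.

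Mitoxantrone over DMSO was then tested for every listed gene with edgeR's quasi-likelihood test, adjusted over the 18305 tests that the authors' p-values imply. Among the 139 loci, 76 rose and 33 fell at an adjusted p of at most 0.05, and 30 did not pass. That is 54.7% higher and 23.7% lower, beside 56.7% and 35.3% of all 1305 listed genes. By sign alone, 90 loci were higher and 49 lower (64.7% higher), beside 60.8% of all listed genes. The median log2 fold change was 1.64 over the loci and 1.26 over all listed genes. In 136 of the 139 loci (97.8%) the DMSO and mitoxantrone libraries did not overlap, beside 98.6% of all listed genes, all of them genes that the authors had selected as differing. Scaling factors computed over the listed genes moved the split to 36 higher and 49 lower (TMM) or 20 and 49 (DESeq2 size factors). The shifts were -0.67 and -0.99 in every log2 fold change. No locus changed sign, and none could, since the smallest rise, that of MIR222HG, was 1.065. Under DESeq2 size factors, 14 of the 42 loci that the naming rule chose no longer passed. Among them were SH3TC2-DT, PDCD6-DT, RP11-164J13.1, RP11-488P3.1, MIR222HG, TNFRSF10A-AS1, RP11-347C18.3 and the 3 loci at BCAN. Under TMM 5 did not, among them MIR222HG and RP11-347C18.3. Without mitoxantrone replicate 2, 64 rose and 21 fell.

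**Figure D1:**
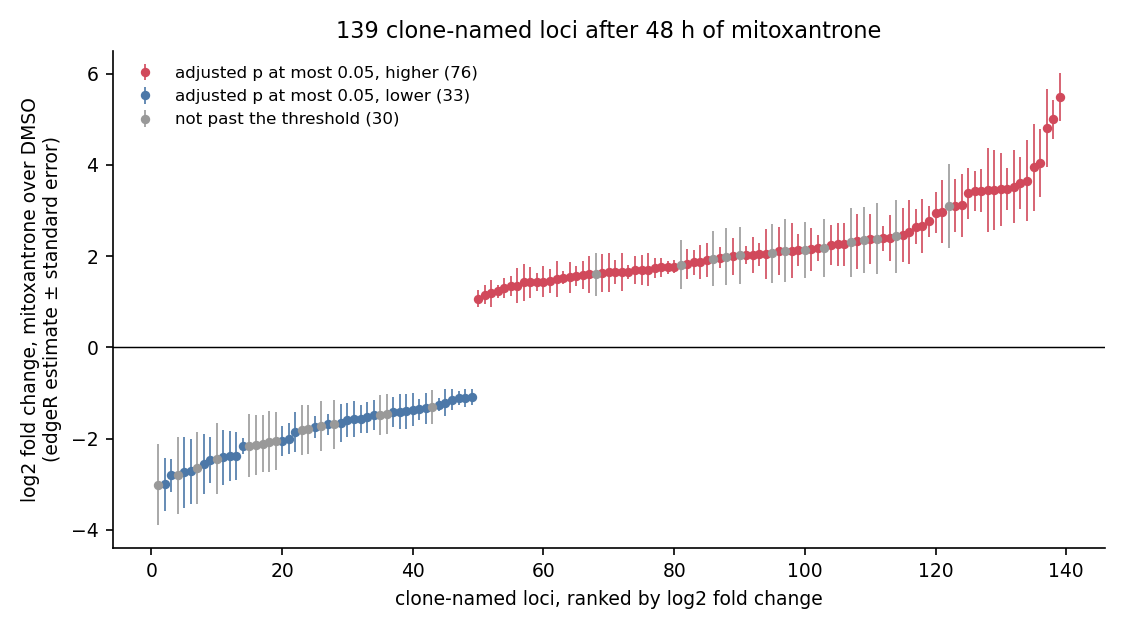
Each point is 1 of the 139 clone-named loci, ranked along the x axis, with its log2 fold change (mitoxantrone over DMSO) and standard error from edgeR on the y axis. Red marks the 76 that rose, blue the 33 that fell and grey the 30 that did not pass; the gap around 0 reflects the authors' selection of genes with a fold change of at least 1.0 on the log2 scale.

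The loci were short and scarce. Their median length in the table was 1002 bases, against 3595 for all listed genes, and their median level was 17.0 normalized reads and 0.82 FPKM (reads scaled by gene length and library size), against 64.2 reads and 1.35 FPKM. A mean under 10 reads was found for 49 loci, and 24 of these passed the test (49.0%), whereas 85 of the 90 loci with at least 10 reads passed (94.4%). Among the other listed genes the shares were 70.2% under and 97.1% at or above 10 reads. In DMSO, 9 loci had only 1 to 3 reads over the 3 libraries together, and in mitoxantrone 3 loci did, so no fold is given for them; none was at 0 in all libraries of a group. At the threshold itself, LINC03036 (RP11-498J9.2) passed with an adjusted p of 0.049 and HMGA2-AS1 (RP11-366L20.2) missed it with 0.053. Both rested on few reads, 11 and 42 for the former and 7 and 27 for the latter.

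Among loci with at least 10 reads on average, non-overlapping groups and an adjusted p of at most 0.05, the largest rise was that of CTB-91J4.1 on chromosome 17 (34443570 to 34504870 on the plus strand; positions of clone-named loci outside the sequence windows are those of the deposited table, whose genome build is not given in the sources used here). It had 2.58, 1.03 and 0 reads in DMSO and 79.2, 49.0 and 51.5 in mitoxantrone. From 4 to 165 reads in all, the fold was 49.1 with an exact 95% counting interval of 18.8 to 182. The log2 fold change was 5.49 ± 0.52 (edgeR adjusted p = 2.3e-06), where the authors' deposited table gives 3.53. LNCOG (RP11-54A9.1), a lincRNA on chromosome 12, had 1.72, 1.03 and 1.71 reads in DMSO and 62.2, 45.9 and 49.4 in mitoxantrone. Its fold was 34.5 (14.5 to 108), and the authors' deposited table gives a log2 fold change of 3.32.

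Named lncRNAs stood among the 10 largest rises. PINCR (RP3-326I13.1), known as a p53-induced non-coding RNA, had 3.44, 1.03 and 3.43 reads in DMSO and 28.3, 26.1 and 39.7 in mitoxantrone, 11.5-fold more (5.79 to 26.0; edgeR adjusted p = 6.2e-05). WAKMAR2 (RP11-356I2.4), an antisense lncRNA studied in keratinocyte migration and wound inflammation, rose 11.2-fold, from 3.09 ± 1.24 to 34.1 ± 8.11 reads. LINC02989 (RP13-631K18.5) rose from 2.12 ± 0.43 to 24.1 ± 1.46, PDCD6-DT (CTD-2083E4.6) from 2.58 ± 2.58 to 22.0 ± 0.58, and RP6-91H8.3 from 2.00 ± 2.16 to 27.0 ± 5.02 (SD, n = 3 each). LINC02783, LINC01204 and RP11-164J13.1, 1 of the 3 loci typed as protein-coding, completed the list with log2 fold changes of 2.95, 2.76 and 2.98, the last with an adjusted p of up to 0.092 without 1 library. In none of the 10 did a DMSO library reach a mitoxantrone library, which was a condition of the rule that chose them. PICART1 (RP11-1094H24.4), also known as a p53-inducible transcript and outside that list, had 55.9, 41.2 and 50.6 reads in DMSO and 109.7, 148.0 and 183.5 in mitoxantrone; it was singled out after its values were seen.

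The 10 largest falls had log2 fold changes from -1.60 to -2.81, beside 2.76 to 5.49 for the rises. RP1-193H18.2 on chromosome 17 had 37.8, 55.6 and 45.4 reads in DMSO and 5.65, 8.34 and 5.37 in mitoxantrone, a fall by 2.81 ± 0.35 on the log2 scale (edgeR adjusted p = 3.6e-05). RP6-24A23.7 on chromosome X, a sense overlapping transcript, had 1389, 939 and 1166 reads in DMSO and 214.8, 245.9 and 317.7 in mitoxantrone, and with 3888 and 722 reads in all it was the most deeply counted of these. IRAIN (RP11-35O15.1), an antisense lncRNA of the insulin-like growth factor receptor gene IGF1R, had 34.4, 39.2 and 48.8 reads in DMSO and 12.4, 6.25 and 11.8 in mitoxantrone. The groups stood apart in all 3, as the rule for this list required. LINC02593 (RP11-54O7.3) fell by 2.05, the tubulin pseudogene TUBA5P (RP11-480I12.5) by 1.69 and SLC16A4-AS1 (RP5-1074L1.4) by 1.75 on the log2 scale. COA6-AS1, CDK13-DT, RP11-37C7.3 and RP11-38P22.2 made up the rest. Of these, COA6-AS1, CDK13-DT and RP11-37C7.3 missed the threshold without 1 or another library (highest adjusted p 0.14, 0.071 and 0.078).

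**Figure D2:**
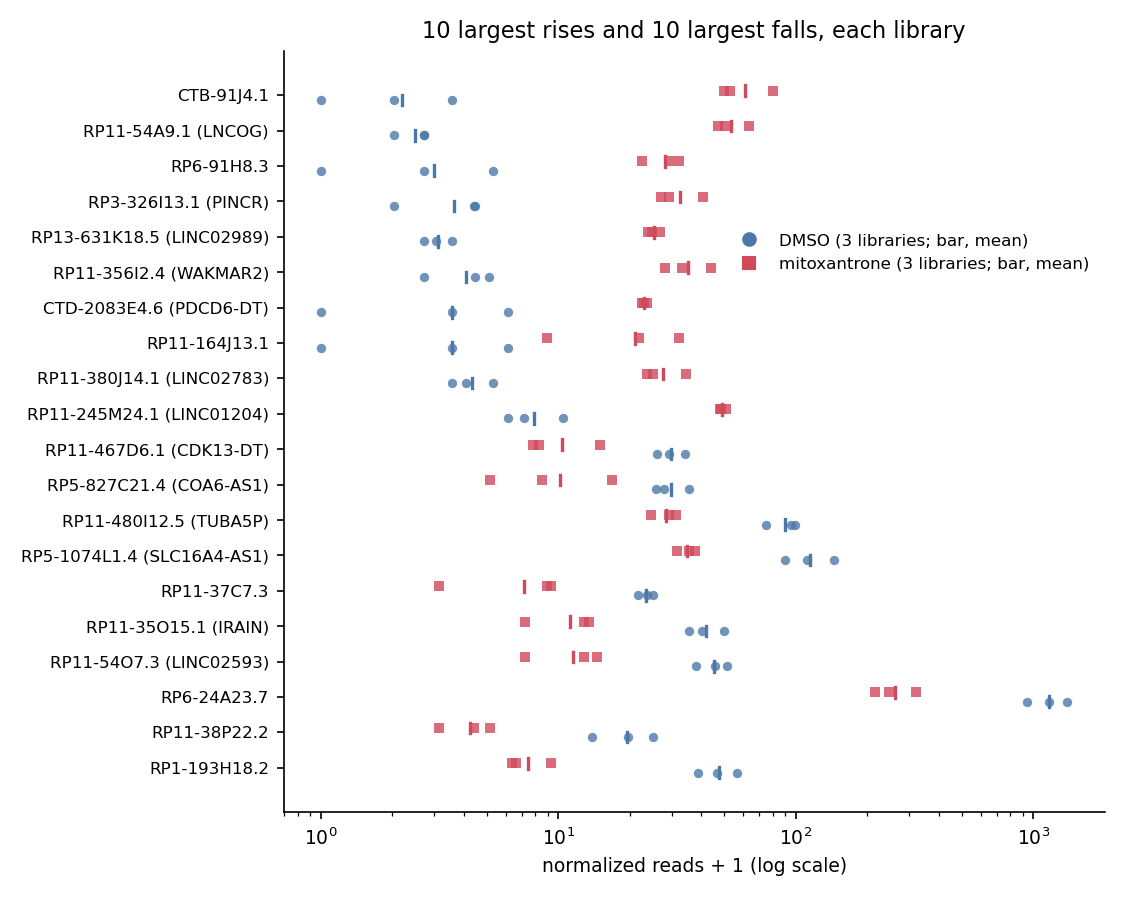
Normalized reads plus 1 (log scale) in each DMSO library (blue circles) and mitoxantrone library (red squares), with group means as bars, for the loci with the 10 largest rises and the 10 largest falls. The 2 groups do not overlap in any row, a condition of the rule that chose these loci, and CTB-91J4.1 and RP11-54A9.1 show the widest gaps.

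On the scale that allows levels of different loci to be compared, FPKM, a few clone-named loci were abundant. HMGB1P6 (RP11-673C5.1) had the highest mean, 93.9 FPKM, followed by SNHG19 with 26.3, RP11-488P3.1 with 26.0, MAP3K9-DT with 15.6 and RP11-424C20.2 with 13.8. HMGB1P6 and RP11-424C20.2 are processed pseudogenes. HMGB1P6 had 1228, 1524 and 1188 normalized reads in DMSO and 699, 564 and 556 in mitoxantrone, a fall by 1.12 ± 0.15 on the log2 scale. SNHG19 (RP11-304L19.5), a host transcript of small nucleolar RNAs, had 153.8, 233.9 and 196.2 reads in DMSO and 98.4, 99.0 and 73.0 in mitoxantrone. RP11-488P3.1 on chromosome 1 (94218480 to 94241000, minus strand), which had no entry in the later annotation, rose from 378, 407 and 296 to 1087, 1021 and 1006 reads. All 5 separated the groups, as did 98.6% of all listed genes.

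The 2 abundant pseudogenes were near copies of genes that were themselves in the table. The transcript of HMGB1P6 matched HMGB1, a chromatin protein released by dying cells, with 98.1% identity over 648 aligned bases, and RP11-424C20.2 matched UHRF1, a factor that maintains DNA methylation in dividing cells, with 99.4% over 1423. HMGB1 fell from 9917 ± 1276 to 4247 ± 378 reads, by 1.22 on the log2 scale, and UHRF1 fell from 2021 ± 159 to 807 ± 39.7, by 1.32, beside 1.12 and 1.26 for the copies. At such identity short reads of the gene and its copy may not be separable, and the level of these 2 loci is uncertain. AADACP1 (79.1% identical to AADAC) and RP4-742C19.12 (79.1% to APOBEC3C over 153 bases) rose, as did the gene each matched best. TM9SF5P (RP11-308D16.4) had a log2 fold change of -1.48 without passing, whereas CES3, its best match over part of its length, rose by 1.28. Over all 12 pseudogenes, 5 rose, 5 fell and 2 did not pass, with a median log2 fold change of -1.19.

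By type, and beside the 60.8% of all listed genes that were higher by sign, 36 of the 45 lincRNAs were higher (80.0%) and 9 lower, with 31 and 6 past the threshold and a median log2 fold change of 2.02. Of the 49 antisense loci 28 were higher (57.1%) and 21 lower, with 21 and 14 past the threshold and a median of 1.495. The 8 sense intronic or overlapping loci were 5 higher and 3 lower, the 6 other non-coding loci 4 and 2, the 3 protein-coding loci 1 and 2, and the 16 without an entry 11 and 5. By current name, 18 of 20 LINC loci were higher, as were 6 of 13 divergent transcripts and 12 of 19 loci with an -AS name. Beside these, 24 of 45 listed genes with other non-coding names (LINC, SNHG, MIR or an -AS, -IT or -OT ending in the table itself) were higher, 20 past the threshold, with a median of 1.11. Of 26 listed genes with other accession or clone names 20 were higher. No test of these differences between types was made.

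**Figure D3:**
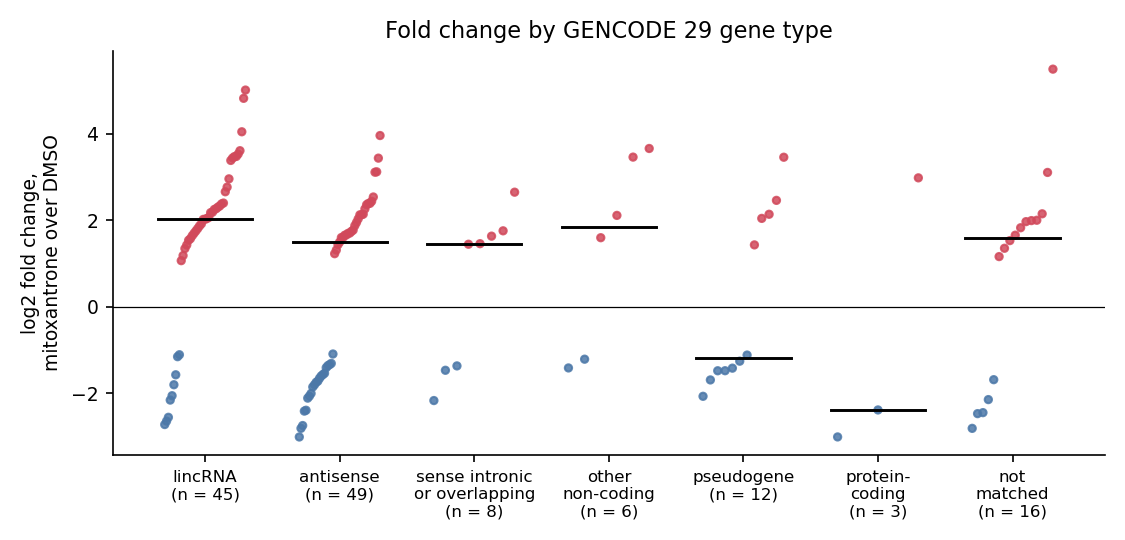
Log2 fold change of each clone-named locus (points; red higher, blue lower) by its GENCODE 29 gene type, with the number of loci under each type and the median as a black bar. The lincRNAs lie mostly above 0 with a median of 2.02, the antisense loci divide into 28 higher and 21 lower, and the pseudogenes have a median of -1.19.

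Among the 48 loci with a start window, 10 of 16 lower loci (62.5%) and 8 of 32 higher loci (25.0%) shared their start region with a gene on the opposite strand. The difference between these shares was not tested. Among the other listed genes the shares were 23.9% of 327 lower and 11.3% of 486 higher, and among all 27305 RefSeq genes with a window 18.9%. The partner was not in the table for 14 of these 18 loci, among them WAPL-DT (RP11-77P6.2), which fell from 48.4 ± 11.8 to 16.3 ± 2.84 reads beside WAPL, a cohesin release factor, and PAPOLA-DT, EMSY-DT, COA6-AS1, SNHG19 and C16orf95-DT, which also fell. TWSG1-DT, LRRC8D-DT and EMC1-AS1 were lower without passing. The higher loci of this kind were PDCD6-DT, MIR3659HG, LINC03036, MOCS2-DT and PPP1R14B-AS1, which passed. The median GC content of the windows was 51.0% for higher and 68.5% for lower loci, beside 62.0% and 66.7% for the other listed genes; each gene counts with its richest window.

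The letters TGANTCA, where N is any base, occurred in 5 of the 57 windows (8.77%), beside 7.71% of all 35116. This pattern reads the same on both strands. It is looser than TGACTCA or TGAGTCA, the binding motif of the AP-1 family of stress-responsive factors. All 5 belonged to higher loci, 5 of 32 (15.6%), beside 18.1% of the other higher and 7.3% of the other lower listed genes. A match describes the letters only. The window of LINC02725 (RP11-702B10.2, chr11:128095509-128095808, plus strand) is shown with the matches in capitals. It is an example that holds the pattern more than once in 300 bases, as 1 window of LINC02535 also does. Of its matches, TGACTCA is the AP-1 motif, whereas TGAATCA fits the looser pattern only.
LINC02725: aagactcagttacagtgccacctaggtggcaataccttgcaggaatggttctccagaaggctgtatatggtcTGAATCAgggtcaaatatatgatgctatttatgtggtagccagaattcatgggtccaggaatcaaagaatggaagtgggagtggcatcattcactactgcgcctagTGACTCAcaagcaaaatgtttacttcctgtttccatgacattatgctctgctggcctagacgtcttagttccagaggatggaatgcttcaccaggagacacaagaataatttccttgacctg
LINC02725 had 27.5, 38.1 and 16.3 reads in DMSO and 111.9, 107.3 and 113.8 in mitoxantrone, a rise of 2.04 ± 0.26 on the log2 scale (edgeR adjusted p = 4.0e-05). The mitoxantrone libraries were close to each other and all above DMSO. The other windows with the pattern were those of LINC02535, LASTR, LINC01269 and the other window of HSD11B1-AS1, and LINC01269 did not pass the test.

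The nearest other listed gene on the same chromosome was then found for each locus. It differed in the same direction for 105 of 139 loci (75.5%), against 756 of 1166 other listed genes (64.8%). With pairs of loci that are each other's nearest gene counted once, the count was 96 of 130 (73.8%). The share followed distance: 19 of 19 where the 2 genes overlapped, 18 of 18 with a gap of up to 10 kb, 18 of 21 from 10 to 100 kb, 31 of 48 up to 1 Mb and 19 of 33 beyond. The other listed genes went from 53 of 57 and 73 of 83 through 144 of 197 and 310 of 507 to 176 of 322 over the same distances. Higher loci shared the direction in 76 of 90 cases and lower loci in 29 of 49, beside 70.7% and 55.9% of the other listed genes. These pairs exist only where both genes passed the authors' selection.

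**Figure D4:**
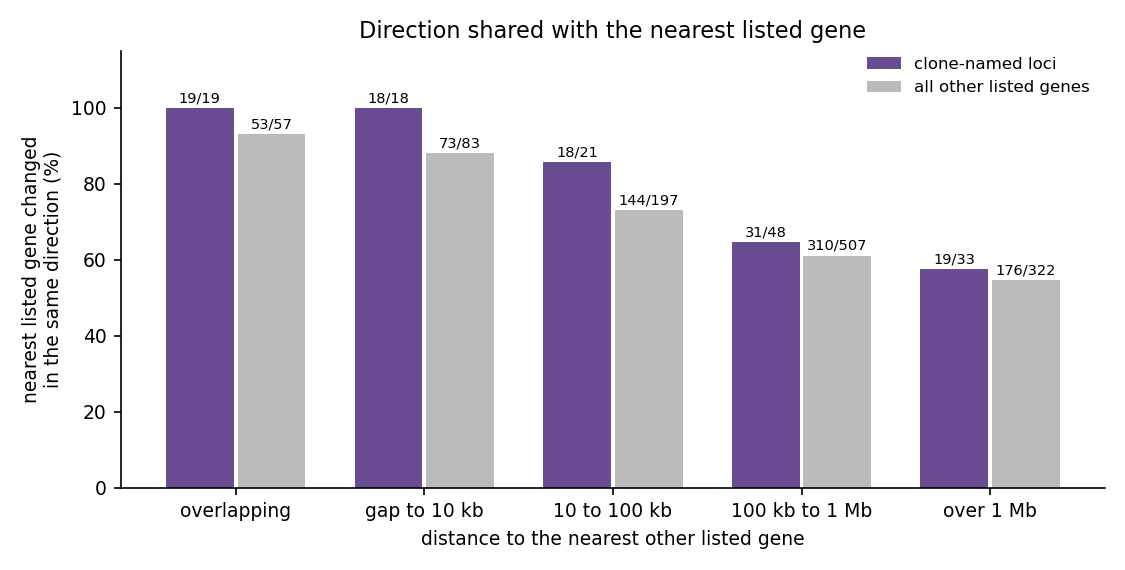
Share (percent) of genes whose nearest other listed gene differed in the same direction, by distance, for the clone-named loci (purple) and all other listed genes (grey), with the counts above the bars. The purple bars start at 19 of 19 and 18 of 18 and end at 19 of 33 beyond 1 Mb, and the grey bars fall from 53 of 57 to 176 of 322.

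The 37 loci that overlapped or lay within 10 kb of a listed gene formed 33 distinct pairs, 29 of them with a gene outside the clone-named set. All 33 had 1 direction, 26 higher, and 20 lay on opposite strands. In the 29 pairs the clone-named locus had a median of 19.9 normalized reads and its neighbour 137.5. The locus had the larger absolute log2 fold change in 20 of 29, with medians of 2.05 and 1.69. This was not particular to close pairs: it held in 13 of 17 such pairs from 10 to 100 kb and 47 of 70 beyond. Over all loci the median absolute log2 fold change was 2.02, beside 1.59 for the other listed genes. The labels do not give strandedness, and without it reads of overlapping genes on opposite strands cannot be told apart.

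**Figure D5:**
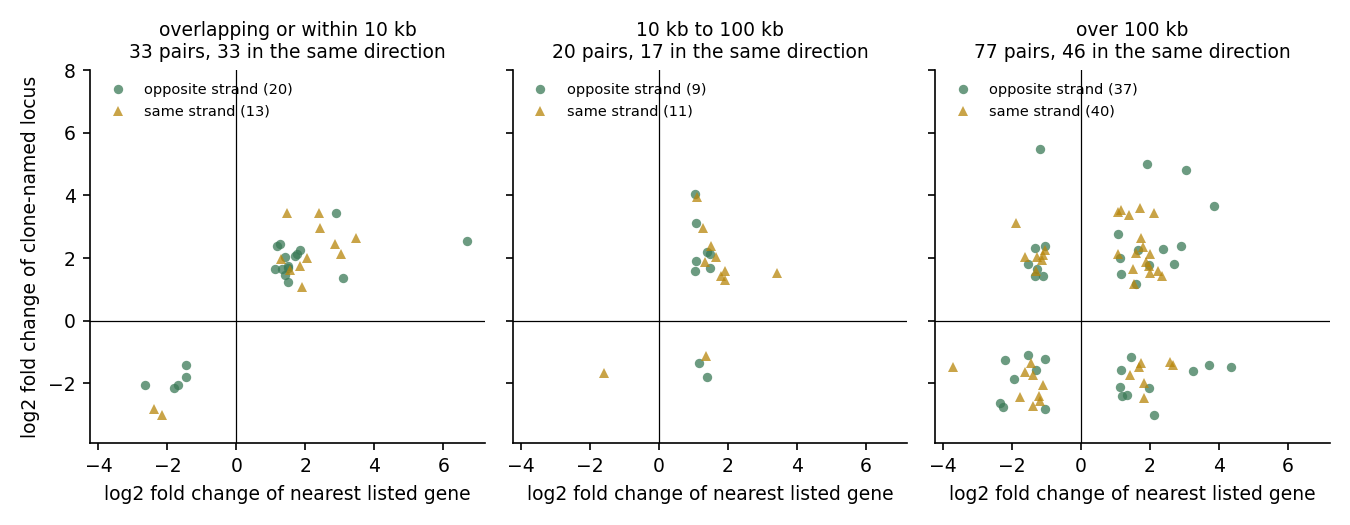
Log2 fold change of each clone-named locus (y axis) against that of its nearest listed gene (x axis), in 3 distance classes, each distinct pair once; circles are pairs on opposite strands and triangles pairs on the same strand. All 33 close pairs lie in the lower left or upper right field, and at over 100 kb 46 of 77 do; the point farthest to the right is G0S2, whose DMSO libraries held no reads, so that its fitted position depends on the prior count.

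Of the close pairs with higher values, WAKMAR2 overlapped TNFAIP3, which encodes the NF-kB inhibitor A20. WAKMAR2 had 3.44, 4.12 and 1.71 reads in DMSO and 43.0, 27.1 and 32.2 in mitoxantrone, and TNFAIP3 174.4, 118.5 and 108.0 and then 892, 1074 and 1030. Their log2 fold changes were 3.43 ± 0.44 and 2.90 ± 0.18. RP11-399O19.9, 50 bases from the death receptor gene FAS on the same strand, rose from 7.67 ± 2.93 to 23.8 ± 5.74 reads (edgeR adjusted p = 0.020; 0.015 to 0.13 without 1 library), and FAS from 633 ± 62.3 to 1863 ± 232. TNFRSF10A-AS1 (RP11-1149O23.2), antisense to the TRAIL receptor gene TNFRSF10A, had 15.5, 22.7 and 17.1 reads in DMSO and 58.8, 52.1 and 62.3 in mitoxantrone, and TNFRSF10A rose 2.50-fold. TNFRSF14-AS1 (RP3-395M20.8) rose from 12.4 ± 1.91 to 65.4 ± 7.64 reads, beside 2.26-fold for TNFRSF14, a receptor of the same family. RP11-347C18.3, 625 bases from the p53 target gene TP53INP1 on the opposite strand, rose from 21.0 ± 3.26 to 58.1 ± 9.72. In GENCODE 29 this locus is sense intronic and overlaps, on the same strand, the coding gene NDUFAF6, which was not in the table. Whether reads of NDUFAF6 added to its counts was not tested. None of these loci had a DMSO library at the level of a mitoxantrone library, which held for 98.6% of all listed genes.

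Other close pairs were higher as well. A sense overlapping transcript on chromosome 9 named AL158206.1 in GENCODE 29, 1188 bases from the ceramidase gene ACER2, rose from 114.3, 129.8 and 131.1 to 415, 406 and 444 reads. BCAN, which encodes the matrix proteoglycan brevican, had 3 such loci: BCAN-AS2 (RP11-284F21.7), BCAN-AS1 (RP11-284F21.9) and RP11-284F21.10, with log2 fold changes of 1.70, 1.75 and 1.23 beside 1.51 for BCAN. GASK1B-AS1 (RP11-597D13.9) rose from 120.4 ± 15.6 to 381.5 ± 15.4 reads over FAM198B. RP11-524D16__A.3, RP13-238F13.5, CTD-2231H16.1 and RP11-782C8.2 rose beside SRPX2, NKX1-2, PLEKHG4B and RP11-782C8.4, the last of which did not pass. The first 3 loci lay 2030, 1247 and 394 bases from their neighbour on its strand and had no GENCODE 29 entry. Whether their reads belonged to the neighbouring gene was not tested. The call for RP11-782C8.2 was lost without any 1 of 5 libraries (adjusted p up to 0.20), and that for CTD-2231H16.1 without mitoxantrone replicate 3 (0.054). HMGA2-AS1 (edgeR adjusted p = 0.053) and BCL2L1-AS1 (edgeR adjusted p = 0.11, with overlapping groups) did not pass. HMGA2, a chromatin protein, and BCL2L1, an inhibitor of apoptosis, rose 3.40-fold and 2.44-fold on pooled reads scaled by size factor.

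The falling pairs were few. RP1-193H18.2 fell 8026 bases from MAP2K6, a kinase that activates p38, which had 177.9, 183.4 and 228.8 reads in DMSO and 30.5, 38.6 and 42.9 in mitoxantrone. RP1-193H18.2 lay on the strand of MAP2K6 and had no GENCODE 29 entry, and whether its reads belonged to that gene was not tested. LINC02593 fell beside SAMD11, which dropped from 94.1 ± 3.98 to 14.8 ± 4.01 reads. RP6-24A23.7 fell together with RP6-24A23.6, which overlaps it on the same strand, is typed as protein-coding and had 15.2 ± 4.23 and 1.79 ± 0.57 reads. In GENCODE 29, RP6-24A23.6 also overlapped, on the same strand, the listed coding gene IRS4, whose log2 fold change was -1.84. Whether reads of IRS4 added to the counts of RP6-24A23.6 was not tested. CTB-31O20.4 fell (edgeR adjusted p = 0.036; up to 0.22 without 1 library) 9812 bases from ATP8B3, whose own adjusted p was 0.056. The 3 pairs within 100 kb of opposite direction all had a lower locus and a higher neighbour: RP13-1032I1.7 (77.0 ± 5.70 to 30.0 ± 4.75 reads) with TSPAN10, RP11-54O7.17 (13.9 ± 5.73 to 3.93 ± 1.57, adjusted p = 0.062) with PLEKHN1, and HMGB1P6 with CT62.

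MIR222HG (RP6-99M1.2) is the host transcript of miR-221 and miR-222, which repress the cell cycle inhibitor CDKN1B. The mature sequences of the 3p arms are shown with the seed (bases 2 to 8) in capitals, from RefSeq (GRCh38.p14, chromosome X, minus strand, 45746180 to 45746202 and 45747036 to 45747056), because the 2 share it.
hsa-miR-221-3p: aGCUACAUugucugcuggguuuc
hsa-miR-222-3p: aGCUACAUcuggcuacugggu
MIR222HG had 141.8, 211.2 and 137.9 reads in DMSO and 400.3, 319.9 and 303.8 in mitoxantrone, a rise of 1.07 ± 0.18 on the log2 scale (edgeR adjusted p = 0.00074). The 110-base MIR221 hairpin, which lies within it on the same strand, was counted as a gene of its own and rose from 5.09 ± 2.31 to 19.5 ± 4.32 reads. Both separated the groups, as did 98.6% of all listed genes. Counts over a hairpin in a library of fragmented long RNA are not a measure of the mature miRNA.

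Beyond listed neighbours, 52 of the 123 loci with a GENCODE 29 entry overlapped a protein-coding gene outside the clone-named set in that annotation, 46 of them on the opposite strand. RP6-24A23.7, which overlaps only the clone-named RP6-24A23.6, is not counted here. For 13 loci an overlapped gene was in the table, and all 13 of these pairs differed in the same direction. Most of these pairs were already counted above among the loci that overlapped their nearest listed gene. Of the other listed genes that overlapped theirs, 53 of 57 also shared its direction. For the other 39 loci no overlapped gene was in the table, and such genes were not analysed here. These 39 were 16 of the 79 higher and 23 of the 44 lower loci. Clones that gave several loci showed 1 direction each: 9 clones held 19 loci, and in none were there both higher and lower ones. Loci of 1 clone lie near each other, and several of these are neighbours already counted above. Among the other listed genes, 73 of 83 with a gap of up to 10 kb shared the direction of their nearest listed gene. From 10 to 100 kb, 144 of 197 did.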

How the data were processed

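RNA of 6 NCI-H292 libraries was sequenced, per the labels' protocols, as paired reads after poly(A) selection or ribosomal RNA removal; which of the 2 is not stated. Tools named in the submitters' processing notes, without role or order, are HTSeq 0.6.1, HISAT2 2.0.1, Cufflinks 2.2.1, cutadapt 1.9.1 and DESeq2. The authors' build is not given in the sources used here, nor is the annotation; start and end equalled those of GENCODE 29 for only 3 genes, so positions of the 2 were never joined.

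Per the file headers, the deposited table gives read counts and FPKM per gene and library, a mean normalized signal over libraries, the log2 fold change, and the p-value and adjusted p-value of the authors' test. Columns of per-sample values left unused numbered 0. The authors' size factors (0.8844 to 1.1672) and the library totals were recovered from these columns (largest relative error 5e-10; 100% of FPKM given back within 0.006 or 0.02 percent), and the number of tests, 18305 (18289 to 18321), from the ratio of adjusted to raw p. Normalized reads are counts divided by size factors. The replicates were not duplicates (chi-square per gene over the clone-named loci 1.24 to 2.92).

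Counts were fitted with edgeR 4.0.16 (limma 3.58.1, R 4.3.3), quasi-likelihood, on all 1305 genes with no filter. Adjusted p-values rank the listed genes only so that they can be too large but not too small for that reason. Fold intervals are exact binomial, 95%, on pooled reads, and cover counting error only, as does the floor of 3 reads. On simulated counts for the 1305 genes, 61% of genes changed by a log2 fold of 1 and 93% at 2 were recovered, with 0 of 1105 unchanged genes called. These counts were drawn with the fit's own dispersions and 200 changed genes, and the shares are over all listed genes. They do not give the recovery for the scarcer clone-named loci. Pseudogene transcripts were aligned with blastn 2.17.0 to GENCODE 29 coding transcripts. Distances are gaps between start and end in the deposited table, and ties went to the gene with more reads.

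Named loci are the 10 largest rises and falls past adjusted p 0.05 with non-overlapping groups and a mean of 10 reads; the 5 with the highest FPKM; the 20 with most reads of the 37 within 10 kb of a listed gene; and 1 on each side of the threshold. This named 42; other loci named were chosen after their values were seen. The members and lists were chosen with earlier results of these data known. The alternatives were other scalings, DESeq2, filters, left-out libraries, a replicate block and other definitions of the nearest gene.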

Additional observations from a re-analysis of the deposited data

How the results depend on the processing

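No clone-named locus changed the sign of its fold change under any other scaling, test, filter, left-out library or replicate block. For the scalings this was fixed in advance. Their largest shift of the log2 fold change was -0.99, and the smallest rise among the loci was 1.065. The counts of 76 loci higher and 33 lower became 36 and 49 with TMM factors and 20 and 49 with DESeq2 size factors, and the median log2 fold change of 1.64 became 0.99 and 0.66. Both scalings compute their factors over the listed genes, and the median over all listed genes went from 1.26 to 0.595 and 0.27. Of all listed genes, 398 were called higher and 512 lower under the former, and 219 and 512 under the latter. A filter of at least 10 reads in 3 libraries left 99 loci and a median of 1.53. An adjusted p of 0.01 left 53 higher and 19 lower. Leaving out 1 library gave 56 to 75 higher, 21 to 35 lower and medians of 1.58 to 1.67; the lowest count of lower loci came without mitoxantrone replicate 2. Of the 109 loci that passed, 66 passed whichever library was left out. DESeq2 gave 77 and 31. The share with a nearest gene of the same direction was 69.8% to 75.5% for the other definitions of that gene, 94.8% for gaps of at most 100 kb and 100% for gaps of at most 10 kb; the last, and the count of distinct pairs, were chosen after seeing the data.

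Replicate numbers did not pair the libraries: the deviations of same-numbered libraries correlated at -0.133, -0.075 and 0.072. A fit with a replicate block gave 77 higher and 33 lower, with 105 of 109 calls shared. Of the 42 named loci, 14 missed the threshold with DESeq2 size factors, 5 with TMM, 2 with library totals, 1 of the 39 tested after the filter, and 1 to 6 when 1 library was left out; all 42 kept their side under DESeq2's test and the block. Of the 49 loci under 10 reads 25 did not pass; 70.2% of the other listed genes at such depth passed, beside 49.0% of the loci, and the cause was not tested.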

Other observations

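Among the listed genes of chromosome 1, 26 of 163 were clone-named loci, and on chromosomes 10, 11, 14, 17 and X they were 12 of 68, 10 of 82, 10 of 37, 10 of 79 and 10 of 50. Chromosomes 2, 13 and 21 held 0, although 82, 17 and 18 listed genes lay there. On these 3 chromosomes 6, 1 and 3 listed genes bore accession-style names such as AC or AP with a number, and on chromosome 19, with 2 clone-named loci among 63 listed genes, 6 did.

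A pair of neighbouring clone-named lincRNAs on chromosome 10, 12356 bases apart on the same strand, rose together. LASTR (RP13-463N16.6) had 41.2, 74.2 and 50.6 normalized reads in DMSO and 145.9, 143.8 and 128.8 in mitoxantrone, and RP11-336A10.5 had 14.6, 13.4 and 14.6 and then 55.4, 53.1 and 48.3. Their log2 fold changes were 1.34 and 1.87 (edgeR adjusted p = 0.0004 and 0.00016). The pair was chosen after its values were seen.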
